A study of Homo sapiens with 26 samples.

Results

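The enzymes of cholesterol and fatty acid synthesis, with the proteins that regulate them, were followed in MDA-MB-468 cells, a triple-negative breast cancer line with basal features, after drugs, antibodies or ligand-coated beads that lower or raise Notch signalling. A list of 34 genes known to be regulated by SREBP (sterol regulatory element-binding protein) was drawn up by gene name. Earlier results of these data were known at that time, so shares of members beside those of all genes are descriptions. Of the 34, 31 were measured, among 19775 genes in all. CYP51A1 and FADS1 were represented by probe sets that also detect another gene, and FDFT1 is not analysed here. Each gene was read from its brightest probe set on the Affymetrix HG-U133 Plus 2.0 array, as log2 of the deposited intensity. There were 26 arrays in 9 groups.

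The antagonism experiment had 8 arrays, from cells grown for 40 h and treated for 24 h. Its 3 control arrays received a control antibody (anti-gD IgG, 10 µg/ml) with 0.05% DMSO, the solvent. A further 3 arrays received that antibody with 5 µM DAPT, an inhibitor of gamma-secretase, the protease that releases the active part of every Notch receptor. The last 2 arrays received anti-N3.A4, an antibody against NOTCH3, at 10 µg/ml with 0.05% DMSO. The agonism experiment had 18 arrays, plated at another density. Its 3 DMSO arrays received 0.05% DMSO and no DAPT. Every other plate received 5 µM DAPT for 16 h, and all plates then had 2 h in plain medium. After this washout 3 arrays received DAPT again (continued DAPT), 3 the control IgG at 20 µg/ml, 3 the NOTCH3 antibody antiN3.A13 at 20 µg/ml, 3 beads carrying the Notch ligand JAG1 fused to Fc and 3 beads carrying Fc alone. DMSO and DAPT were added once more to their own plates at 22 h, and these arrays are labelled as harvested at 24 h. The washout IgG cells thus differ from the DMSO cells in earlier DAPT, in IgG and in having no DMSO renewed, and these cannot be told apart.

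SREBP proteins are held in the endoplasmic reticulum by SCAP and INSIG when sterols are plentiful. When sterols fall, SCAP carries SREBP to the Golgi, where it is cut and released to the nucleus, and it then turns on the genes of the mevalonate pathway, the later sterol steps and fatty acid synthesis. SREBF2 is best known for driving the sterol genes and SREBF1 for the fatty acid genes, and many breast cancers make their own fatty acids through this programme.

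NOTCH3, HES1, NRARP and MYC were read as a check of the labels. In the antagonism experiment MYC, a direct Notch target, fell by 1.34 on the log2 scale with DAPT and by 1.15 with A4. In the other experiment it rose by 1.45 after washout, by a further 1.33 with A13 and by 0.80 with JAG1 beads over Fc beads. Its mean was 10.88 with IgG and 11.32 with Fc beads. By the test described below, 3 of the 4 check genes were lower with DAPT and 3 with A4 in the antagonism experiment. In the agonism experiment 4 were higher after washout than with DAPT, 4 with A13, 3 with JAG1 beads and 1 with Fc beads over IgG. Against DMSO, 3 of the 4 were lower with continued DAPT (changes of the 4 from -1.21 to -0.19). After washout with IgG all 4 were above DMSO (0.22 to 0.6). In the agonism experiment the 7 markers of this line lay between the 66.3th (KRT14) and 99.6th percentile of genes by brightness, and the 9 fibroblast, leukocyte and endothelial markers between the 7.5th (PTPRC) and 72.8th (COL1A1), so the ranges overlapped. The median log2 intensity of an array was 7.6 to 7.65 for antagonism and 6.84 to 6.88 for agonism, so levels are not compared across experiments. Below, a change is a difference of mean log2 intensities with the standard error (SE) of a limma fit over all groups of the experiment. A gene passed at a Benjamini-Hochberg adjusted p under 0.05 over all 19775 genes. Whether replicate arrays had cultures of their own is not in the labels, so p-values measure the spread between these arrays, which may be technical. In bulk RNA, fewer cells of a kind and less RNA per cell cannot be told apart.

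Stretches upstream of 3 members are printed because these genes mark different responses below: SREBF2 rose with the group, TM7SF2 had the largest changes with Notch drugs and agonists, and LBR, which does the same chemical step as TM7SF2, moved the other way. The windows come from RefSeq (GRCh38.p14), which held 28 of the 31 members and not ACAT2, SQLE or FASN. Capitals mark a sterol regulatory element (letters TCACNCCAC) or an NF-Y box (CCAAT, here read on the opposite strand as its reverse complement). The SREBF2 stretch is chr22:41832932-41833019 on the plus strand, 173 to 86 bases before the gene's start, and the TM7SF2 stretch is chr11:65111758-65111842 on the plus strand, 114 to 30 bases before the start. The LBR stretch is chr1:225428822-225428911 on the minus strand, the last 90 bases before the start, and it held neither of them.
SREBF2: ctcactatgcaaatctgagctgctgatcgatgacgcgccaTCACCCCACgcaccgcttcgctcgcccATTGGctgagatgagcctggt
TM7SF2: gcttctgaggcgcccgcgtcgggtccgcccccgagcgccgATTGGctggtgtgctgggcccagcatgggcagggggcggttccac
LBR: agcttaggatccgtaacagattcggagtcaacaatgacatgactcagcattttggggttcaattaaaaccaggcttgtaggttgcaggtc

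Over the 300 bases from 250 before to 50 after each start, on both strands, the NF-Y box was found in 18 of 28 members (64.3%) and in 35.7% of all 27305 promoters. The sterol element was found in SREBF2 alone among the members, 3.57% against 1.15% of all promoters. The RBPJ letters TGGGAA, the site of the DNA-binding partner of Notch, were in MVK, FDPS and ACSS2 (10.7% against 24.3%), and the E-box CACGTG, which MYC and SREBP1 can bind, was in LSS, SC5D, SCAP and INSIG1 (14.3% against 7.43%). Matches to different motifs overlapped at 1 place, in MVK. These matches describe letters in a window and not bound sites.

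Of the 6 groups of the agonism experiment, the DMSO cells, which had received no DAPT, held the lowest mean for 18 of 31 members. After DAPT, washout and control IgG, 27 of 31 members differed from DMSO (87.1%), where 30.6% of all genes did. Of these 21 were higher and 6 lower, against 17.9% and 12.6% of all genes. The arrays of the groups did not overlap for 20 members that were higher and 7 that were lower, against 24.6% and 15.9% of genes. The median change was 0.36 for the members and 0.06 for all genes. Most members are bright genes, which pass more often, and among genes above the median level 90% of the 30 members and 50.8% of 9887 genes passed. The rise was not uniform: fatty acid and regulatory genes rose most evenly, while the later sterol steps divided.

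**Figure D1:**
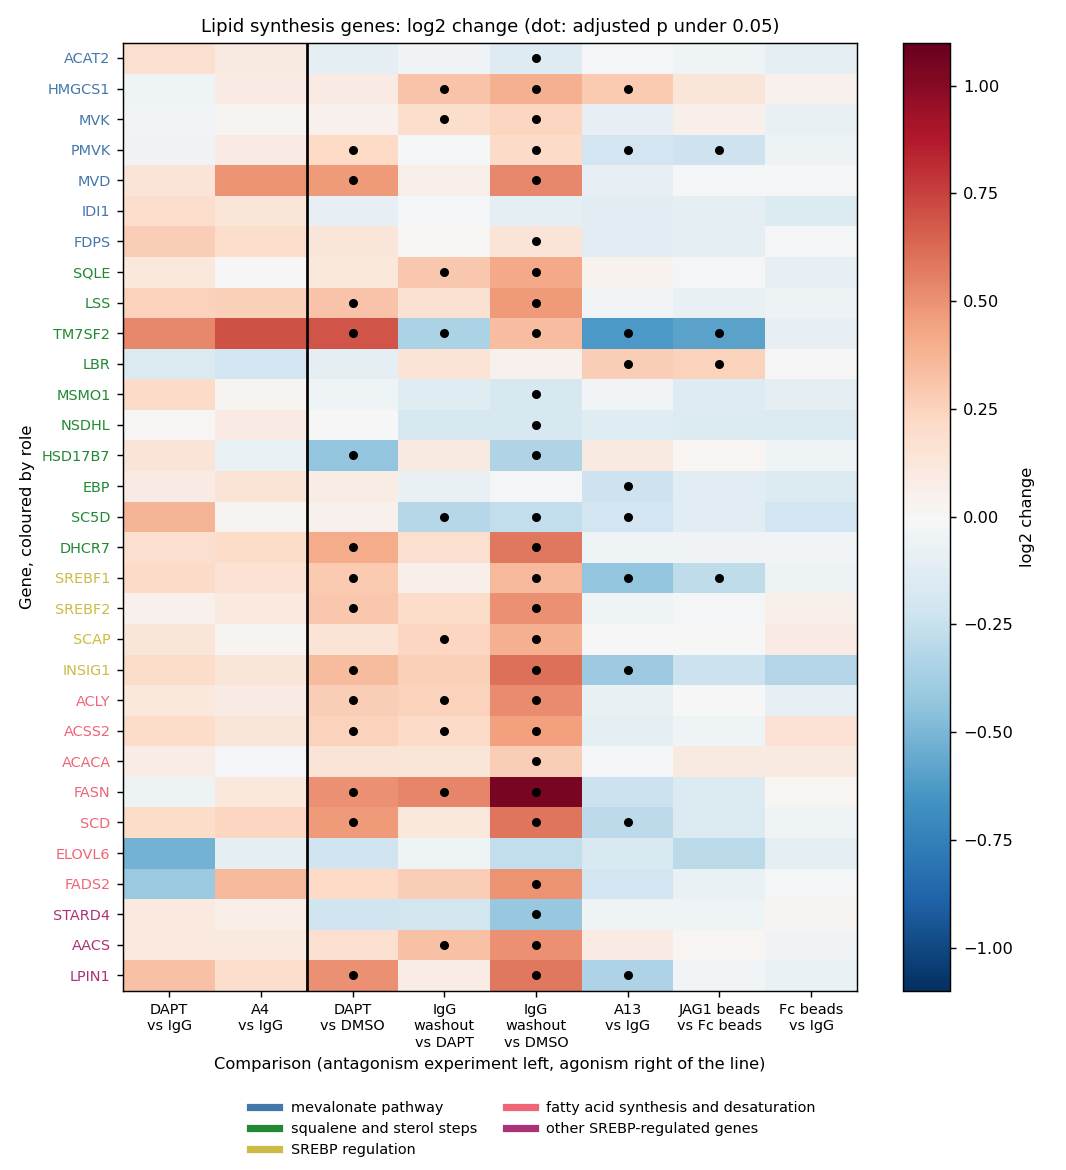
Log2 change of the 31 members (vertical, coloured by role) in 8 comparisons (horizontal), red higher and blue lower, with a dot where the adjusted p was under 0.05. The washout IgG column against DMSO holds 27 dots, the 2 antagonism columns hold 0, and TM7SF2 is red with DAPT and blue with A13 and JAG1.

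The mevalonate pathway builds the isoprenoid units of sterols from acetyl-CoA. Of its 7 measured members, 5 were higher after washout with IgG than in DMSO, 1 was lower and IDI1 did not pass. MVD, which decarboxylates mevalonate diphosphate, read 9.0, 9.33 and 8.99 in DMSO and 9.63, 9.65 and 9.63 after washout with IgG, a rise of 0.53 ± 0.10 (SE, n = 3 and 3 arrays; limma adjusted p = 0.000778). The arrays of the groups did not overlap, and the DMSO arrays were the more scattered. HMGCS1, the synthase that makes HMG-CoA, read 9.13, 9.14 and 9.07 in DMSO and 9.37, 9.51 and 9.63 after washout, a rise of 0.39 ± 0.08 (adjusted p = 0.000825). MVK rose by 0.24, PMVK, which adds the next phosphate, by 0.21 and FDPS, which joins isoprenoids into farnesyl diphosphate, by 0.14. ACAT2, which condenses acetyl-CoA at the start of the pathway, went the other way, with 12.92, 12.83 and 12.90 in DMSO and 12.73, 12.70 and 12.79 after washout, a fall of 0.14 ± 0.05 (adjusted p = 0.0421). The FDPS and PMVK rises and the ACAT2 fall each lost their call when 1 of several arrays was left out (FDPS in 5, PMVK in 4 and ACAT2 in 4 of 6 such fits, with changes of 0.12 to 0.17, 0.17 to 0.28 and -0.17 to -0.12).

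In the squalene and sterol steps, 4 members rose, 4 fell and 2 did not pass. DHCR7, which catalyses the final reduction to cholesterol, read 11.69, 11.95 and 11.67 in DMSO and 12.36, 12.37 and 12.33 after washout with IgG, a rise of 0.58 ± 0.07 (adjusted p = 1.43e-05). LSS, which closes the sterol rings, rose by 0.47 ± 0.07 (adjusted p = 0.000116) and SQLE, the squalene epoxidase, by 0.42 ± 0.06 (adjusted p = 3.74e-05), and TM7SF2, taken up below, by 0.34. Every washout array was above every DMSO array for these 4 genes. SC5D, the sterol C5 desaturase, read 12.89, 12.69 and 12.87 in DMSO and 12.60, 12.51 and 12.54 after washout, a fall of 0.27 ± 0.06 (adjusted p = 0.00291). That call rested on the brighter of its probe sets: the other, at a mean log2 intensity of 7.68, changed by -0.04, and the mean of both by -0.16 (adjusted p = 0.0749). HSD17B7, the 3-keto-sterol reductase of the C4 demethylation steps, whose probe set can also bind related transcripts, read 11.36, 11.02 and 11.41 in DMSO and 10.96, 10.93 and 10.90 after washout, a fall of 0.33 ± 0.08 (adjusted p = 0.00597). DMSO array 2 stood nearest the washout arrays for both genes, with no overlap. MSMO1 and NSDHL, which act in the same C4 demethylation, each had a change of -0.18 that passed narrowly (adjusted p = 0.0391 and 0.0429), and lost the call in 4 and 5 of the 6 fits that left out an array (changes of -0.25 to -0.13 and -0.21 to -0.15). EBP, the sterol isomerase, had a change of -0.01 and LBR of 0.05.

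All 4 regulators rose. SREBF2 read 9.90, 10.13 and 9.92 in DMSO and 10.54, 10.55 and 10.37 after washout with IgG, a rise of 0.50 ± 0.07 (adjusted p = 6.92e-05). INSIG1, the sterol-sensing anchor of SCAP and itself an SREBP target, read 10.83, 10.92 and 10.91 in DMSO and 11.51, 11.58 and 11.40 after washout, a rise of 0.61 ± 0.09 (adjusted p = 5.94e-05). SREBF1 rose by 0.36 ± 0.08 (adjusted p = 0.00153) and SCAP, the escort of SREBP, by 0.39 ± 0.07 (adjusted p = 0.000419). Each of these groups of 3 arrays was clear of the DMSO arrays. A second SREBF2 probe set changed by 0.67 in the same comparison, and another by -0.22.

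The largest change of any member was in FASN, the multifunctional fatty acid synthase. Its level was 11.04, 11.34 and 11.23 in DMSO and 12.35, 12.43 and 11.94 after washout with IgG, a 2.06-fold rise (1.04 ± 0.14 on the log2 scale, adjusted p = 3.97e-05). IgG array 3 was the lowest of its group and still above each DMSO array. The other FASN probe set, dim at a mean log2 intensity of 7.30, changed by 0.00. SCD, the stearoyl-CoA desaturase, read 12.10, 12.23 and 12.15 in DMSO and 12.73, 12.78 and 12.73 after washout, a rise of 0.59 ± 0.05 (adjusted p = 1.87e-06), with little scatter in either group. ACLY and ACSS2, which supply acetyl-CoA from citrate and acetate, rose by 0.52 and 0.45, and ACACA, the carboxylase that makes malonyl-CoA, by 0.27. FADS2, the delta-6 desaturase, rose by 0.49 ± 0.09 (adjusted p = 0.000444). The ACACA call was lost with the mean of its probe sets (0.01), and that of FADS2 without probe sets of the _s_at and _x_at kind, which can bind several transcripts (0.12). ELOVL6, an elongase read from a dim probe set (the 16.8th percentile of genes by brightness), had a change of -0.27 that did not pass (adjusted p = 0.0715).

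Among the other SREBP-regulated genes, LPIN1, a phosphatidate phosphatase and coactivator, rose by 0.58 ± 0.06 (adjusted p = 6.12e-06), and AACS, which activates acetoacetate for lipid synthesis, by 0.50 ± 0.07 (adjusted p = 3.47e-05). STARD4, a carrier that moves sterols between membranes, read 9.61, 9.28 and 9.60 in DMSO and 9.04, 9.10 and 9.10 after washout, a fall of 0.42 ± 0.08 (adjusted p = 0.000558). It was the member with the largest fall, and DMSO array 2 was again the nearest to the washout arrays.

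**Figure D2:**
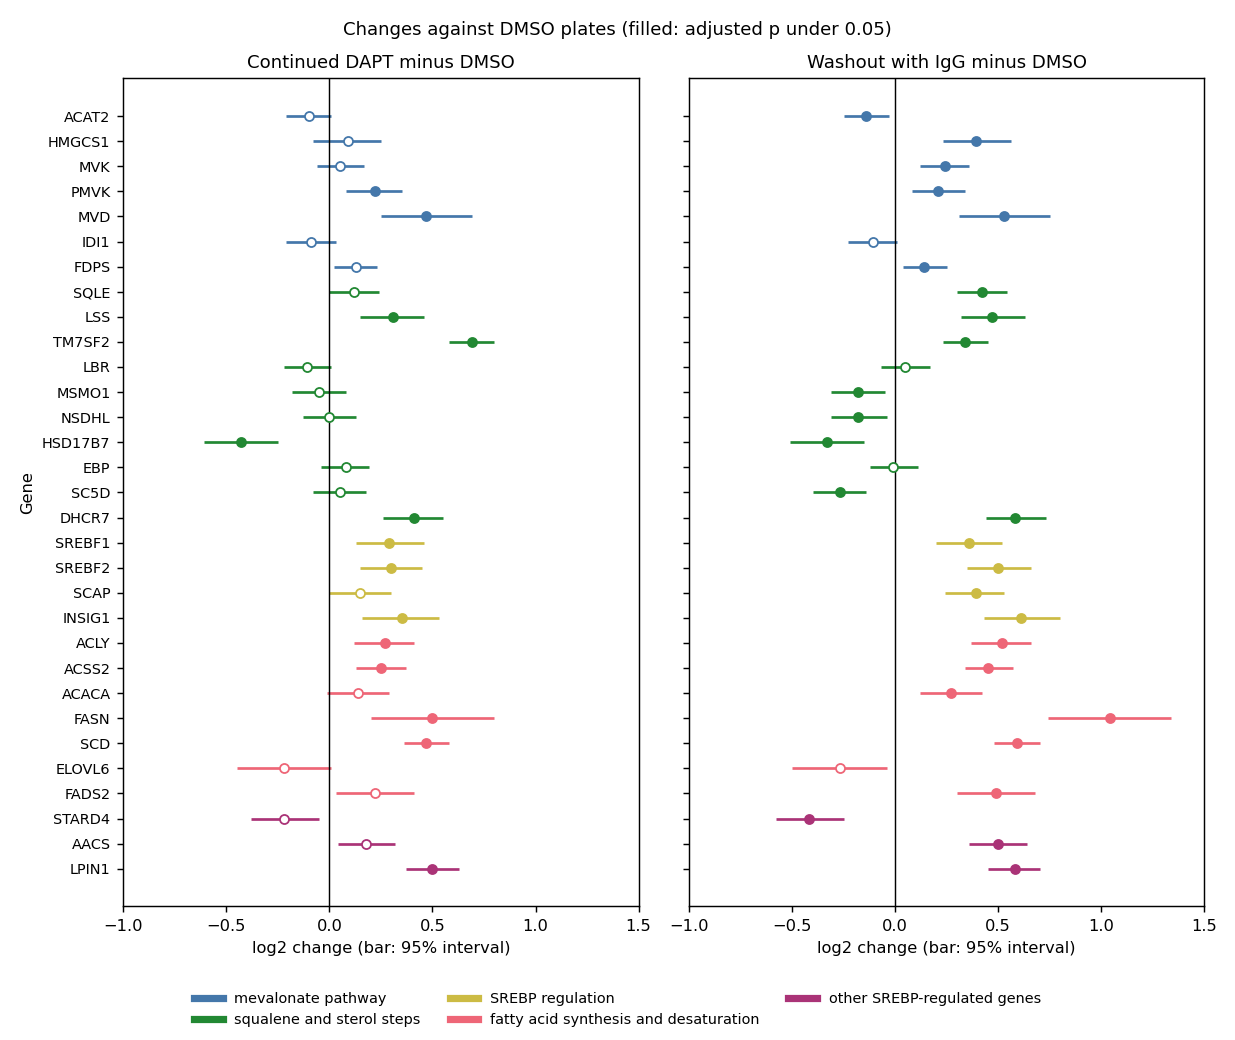
Log2 change (horizontal) of each member (vertical) against DMSO for continued DAPT (left) and washout with control IgG (right), with 95% intervals, filled where the adjusted p was under 0.05. FASN reaches 1.04 on the right, and TM7SF2 is the highest on the left at 0.69.

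The arrays given DAPT again are a parallel group labelled with the same harvest time, so they do not give the state before washout. They do show which members differed from DMSO under continued DAPT. There, 14 of 31 members differed from DMSO (45.2%), against 20.7% of all genes. Of these 13 were higher and 1 lower, against 12.4% and 8.31% of all genes, and the median was 0.15 for members and 0.02 for all genes. Among genes above the median level the shares were 46.7% and 35.7%. By role, 2 of 7 mevalonate genes, 3 of 10 sterol genes, 3 of 4 regulators, 4 of 7 fatty acid genes and 1 of the 3 others rose, and HSD17B7 was the member that fell. LPIN1 read 9.25, 9.33 and 9.26 in DMSO and 9.76, 9.70 and 9.89 with continued DAPT, a rise of 0.50 ± 0.06 (adjusted p = 2.28e-05). SCD read 12.57, 12.63 and 12.70 with DAPT, a rise of 0.47 ± 0.05 over DMSO (adjusted p = 1.13e-05). For both genes the DAPT arrays were all above the DMSO arrays, and neither passed between DAPT and washout with IgG. MVD rose by 0.47, DHCR7 by 0.41, INSIG1 by 0.35, LSS by 0.31, SREBF2 by 0.30, SREBF1 by 0.29, ACLY by 0.27, ACSS2 by 0.25 and PMVK by 0.22. HSD17B7 read 10.89, 10.82 and 10.79 with DAPT, a fall of 0.43 ± 0.08 (adjusted p = 0.0015). FASN rose by 0.50 ± 0.14 (adjusted p = 0.0179), but the call was lost without DMSO array 1, DAPT array 2 or DAPT array 3 (changes over all such fits 0.42 to 0.60). SREBF1 lost it without DMSO array 1 or DAPT array 3 (0.25 to 0.34), PMVK without DMSO array 1, DMSO array 3 or DAPT array 3 (0.18 to 0.29), and ACLY without DMSO array 3 or DAPT array 3 (0.21 to 0.33). With the mean of all probe sets of a gene, FASN (0.19) and SREBF2 (0.14) did not pass. Of the 7 line markers 4 rose and 2 fell in this comparison, with KRT14 at -0.81, KRT5 at -0.51 and CDH1 at 0.53, and after washout with IgG 2 rose and 1 fell against DMSO, with KRT14 at -0.44 and CDH1 at 0.54. The part of these markers in the members' results was not tested.

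After washout with IgG, 10 of 31 members differed from continued DAPT (32.3%), against 9.77% of all genes. Of these 8 were higher and 2 lower, against 4.15% and 5.62% of all genes. Among genes above the median level, 33.3% of members and 16.3% of genes passed. Both comparisons with DMSO above share the DMSO arrays, and this comparison shares the DAPT and IgG arrays with them. FASN read 11.49, 11.78 and 11.82 with DAPT, 0.54 ± 0.14 below the washout IgG arrays (adjusted p = 0.0203), with no overlap. AACS rose by 0.32 ± 0.07 (adjusted p = 0.0052) and SQLE by 0.30 ± 0.06 (adjusted p = 0.00207). HMGCS1 rose by 0.31, ACLY by 0.25, SCAP by 0.24, ACSS2 by 0.21 and MVK by 0.19. TM7SF2 fell by 0.35 ± 0.05 (adjusted p = 0.000347) and SC5D by 0.31 ± 0.06 (adjusted p = 0.00304). SC5D read 12.89, 12.90 and 12.79 with continued DAPT, above each washout IgG array and overlapping DMSO. Fewer members passed when an array was left out: 6 without IgG array 1, 5 without DAPT array 1, 4 without IgG array 2 and 6 without DAPT array 2. All-gene shares are not given for these fits, so the counts show only how the calls depended on single arrays. AACS, SQLE, TM7SF2 and SC5D kept their calls in all 6 such fits. Other choices of probe set ended some calls: SC5D changed by -0.16 on its other set, which is the one left without _s_at and _x_at sets (adjusted p = 0.401), and SQLE by 0.20 with the mean of its sets (adjusted p = 0.0526). ACLY did not pass with the mean of its sets (0.24), and MVK and SCAP, at the same 0.19 and 0.24, did not pass with fewer genes in the fit once _s_at and _x_at sets were left out. Of the 7 line markers 3 rose here and 1 fell, KRT5 by 0.43 and KRT14 by 0.37 among those that rose, and their part was not tested.

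**Figure D3:**
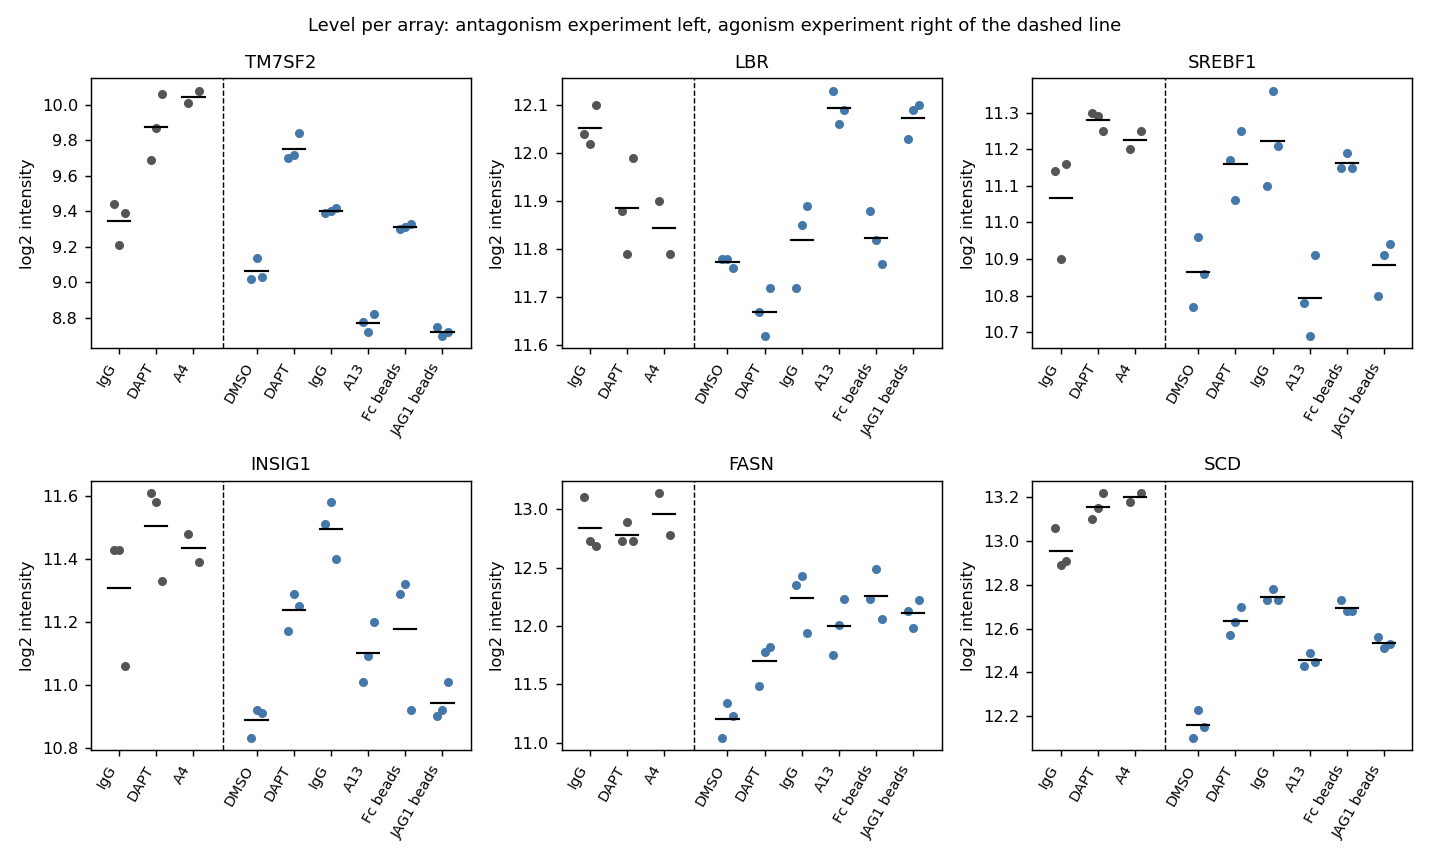
Log2 intensity (vertical) of TM7SF2, LBR, SREBF1, INSIG1, FASN and SCD on every array, by group (horizontal), with the antagonism experiment left and the agonism experiment right of the dashed line. Points are arrays and bars are group means. TM7SF2 runs from 9.75 with DAPT down to 8.73 with JAG1 beads, and LBR from 11.67 up to 12.07 in the same groups.

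TM7SF2 and LBR both encode a sterol C14 reductase, and LBR also ties chromatin to the inner nuclear membrane. They moved in opposite directions with the Notch treatments. TM7SF2 read 9.70, 9.72 and 9.84 with continued DAPT, 9.39, 9.40 and 9.42 after washout with IgG, 9.30, 9.31 and 9.33 with Fc beads, 9.02, 9.14 and 9.03 in DMSO, 8.78, 8.72 and 8.82 with A13, and 8.75, 8.70 and 8.72 with JAG1 beads. The DAPT arrays were the highest 3 of 18, and the A13 and JAG1 arrays were the lowest 6 and overlapped each other. With DAPT it was 1.61-fold above DMSO (0.69 ± 0.05, adjusted p = 2.17e-07). With A13 it was 1.55-fold below IgG (-0.63 ± 0.05, adjusted p = 1.89e-07) and with JAG1 beads 1.5-fold below Fc beads (-0.59 ± 0.05, adjusted p = 1.25e-06). These 3 calls held in every fit that left out an array. TM7SF2 had only 1 single-gene probe set, of the _s_at kind that can bind several transcripts, so no second set could be compared.

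LBR read 11.67, 11.62 and 11.72 with continued DAPT and 11.72, 11.85 and 11.89 after washout with IgG. It read 12.13, 12.06 and 12.09 with A13, and 12.03, 12.09 and 12.10 with JAG1 beads against 11.88, 11.82 and 11.77 with Fc beads. Every A13 and JAG1 array was above every other array of the experiment. The rise was 0.27 ± 0.06 with A13 (adjusted p = 0.00255) and 0.25 ± 0.06 with JAG1 beads (adjusted p = 0.00809). The difference between DAPT and DMSO was -0.11 ± 0.06 and did not pass (adjusted p = 0.217).

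With A13, the agonist antibody, 10 of 31 members differed from IgG (32.3%), against 14.7% of all genes. Of these 2 were higher and 8 lower, against 5.68% and 9.02% of all genes. Among genes above the median level, 33.3% of members and 25.2% of genes passed. The median change was -0.09 for members and -0.03 for all genes. SREBF1 read 11.10, 11.36 and 11.21 with IgG and 10.78, 10.69 and 10.91 with A13, a fall of 0.43 ± 0.08 (adjusted p = 0.000664). INSIG1 read 11.51, 11.58 and 11.40 with IgG and 11.01, 11.09 and 11.20 with A13, a fall of 0.40 ± 0.09 (adjusted p = 0.00353). Neither gene's groups overlapped. LPIN1 fell by 0.34 ± 0.06 (adjusted p = 0.000519), SCD by 0.29 ± 0.05 (adjusted p = 0.000763) and EBP by 0.23 ± 0.05 (adjusted p = 0.00603), while PMVK and SC5D each fell by 0.21. HMGCS1 rose by 0.29 ± 0.08 (adjusted p = 0.0143), and its call was lost without IgG array 1, A13 array 1 or A13 array 3 (0.23 to 0.36), with 0.00 on its other probe set. The PMVK call was lost in 5 of 6 and the SC5D call in 4 of 6 fits that left out an array (-0.24 to -0.19 and -0.23 to -0.18). With the mean of a gene's probe sets HMGCS1 (0.15), EBP (-0.14) and SC5D (-0.14) did not pass, and SC5D had -0.07 on its other set. SREBF2 (-0.05) and SCAP (0.00) did not pass, nor did FASN (-0.24 ± 0.14, adjusted p = 0.311), whose A13 arrays at 11.75, 12.01 and 12.23 overlapped IgG. The basal keratins KRT5 and KRT14 rose by 1.30 and 1.39 in the same comparison, 3 of the 7 line markers rose and 2 fell, and their part in these results was not tested.

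With JAG1 beads, 4 of 31 members differed from Fc beads (12.9%), against 8.11% of all genes, with 1 higher and 3 lower against 2.97% and 5.14%. Among genes above the median level the shares were 13.3% and 13.6%, so the count was near the background. Besides TM7SF2 and LBR, SREBF1 read 11.15, 11.19 and 11.15 with Fc beads and 10.80, 10.91 and 10.94 with JAG1 beads, a fall of 0.28 ± 0.08 (adjusted p = 0.0287). The groups did not overlap, yet the call was lost in 5 of 6 fits that left out an array (-0.31 to -0.24), all except that without JAG1 array 3. PMVK fell by 0.23 ± 0.06 (adjusted p = 0.0316), a call lost in all but the fit without Fc array 3 (-0.25 to -0.20). INSIG1 had a change of -0.24 ± 0.09 (adjusted p = 0.115) and SCD of -0.16 ± 0.05 (adjusted p = 0.0691). With Fc array 1, Fc array 2, JAG1 array 1 or JAG1 array 2 left out, 2 members passed. No all-gene share is given for these fits, so this count shows only a dependence on single arrays. KRT5 and KRT14 rose by 0.93 and 1.14 here, 2 of the 7 line markers rose and 1 fell, and their part was again not tested.

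**Figure D4:**
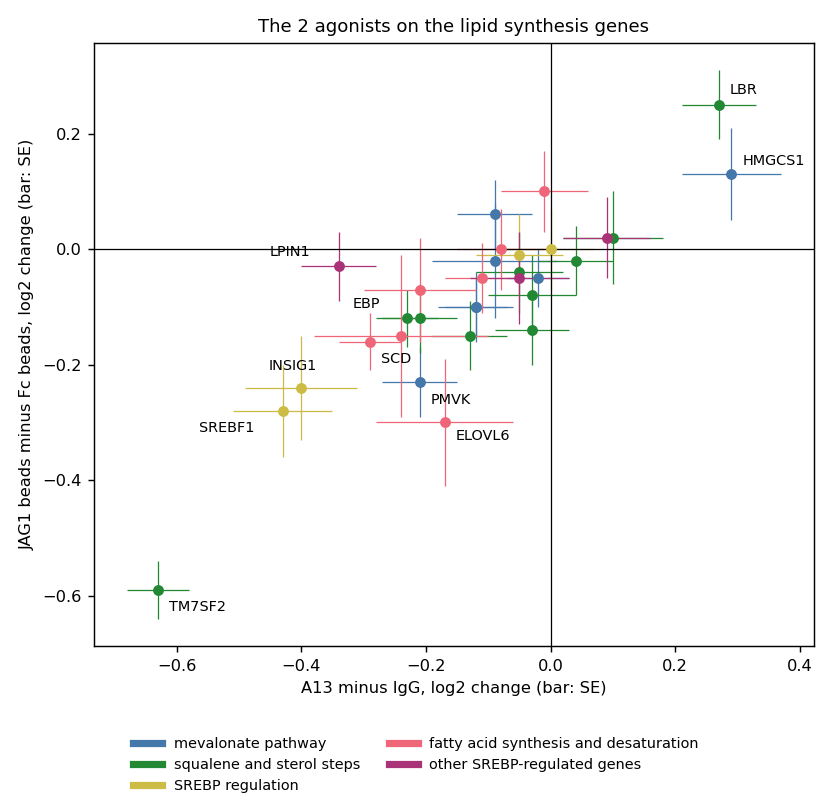
Log2 change with A13 over IgG (horizontal) and with JAG1 beads over Fc beads (vertical) for the 31 members, with SE bars. The 2 comparisons share no arrays. TM7SF2 lies at -0.63 and -0.59, LBR at 0.27 and 0.25, and LPIN1 at -0.34 and -0.03.

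The difference between the agonist effects, JAG1 over Fc beads minus A13 over IgG, was tested for each member. At an adjusted p under 0.05, limma found 0 of 31 members and 0.182% of all genes. At an unadjusted p under 0.05 it found 1173 of 19775 genes and 1 member. That member was LPIN1, with a difference of 0.32 ± 0.08 (95% interval 0.14 to 0.49, adjusted p = 0.257). For TM7SF2 the difference was 0.04 ± 0.08 (95% interval -0.12 to 0.20), and for LBR -0.02 ± 0.08 (-0.18 to 0.15). Set against each other directly, JAG1 beads and A13 differed in 3 members (9.68%, against 6.37% of all genes), 2 higher and 1 lower against 4.72% and 1.64%. Among genes above the median level the shares were 10% of members and 11% of genes, so the count was near the background. LPIN1 read 9.52, 9.48 and 9.54 with A13 and 9.69, 9.81 and 9.77 with JAG1 beads, a difference of 0.24 ± 0.06 (adjusted p = 0.021). With any single array of these groups left out, 0 to 2 members passed, a dependence on single arrays given without all-gene shares. ACSS2 was 0.22 higher and MSMO1 0.22 ± 0.06 lower (-0.22 on the log2 scale), and each of these 3 calls was lost in at least 4 of 6 fits that left out an array. Between the controls, Fc beads and IgG, limma found 0 of 31 members and 2.08% of all genes different at an adjusted p under 0.05. At an unadjusted p under 0.05 it found 7 members and 2893 of 19775 genes. The change was below 0 for 24 members, with a median of -0.06 against -0.01 for all genes, and the arrays did not overlap for 3 that were higher and 10 that were lower, against 10.7% and 9.45% of all genes. Other settings of the fit called up to 4 members, a dependence on the setting given without all-gene shares. The lowest value there was INSIG1 at -0.32 ± 0.09 (adjusted p = 0.0699), and without Fc array 2 limma called 1 member, INSIG1.

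The members were not a uniform block across the 18 agonism arrays. All 3 DMSO arrays were below the other 15 arrays for 11 of 31 members (35.5%, against 6.3% of all genes), namely MVD, SQLE, LSS, DHCR7, SREBF2, ACLY, ACSS2, FASN, SCD, FADS2 and LPIN1. They were above the other 15 for ACAT2 and IDI1, where 5.2% of all genes behaved so. The group mean was lowest in DMSO for 18 members and with JAG1 beads for 9. All 3 JAG1 arrays lay below the other 15 for MSMO1, NSDHL and SC5D, 3 later sterol enzymes (9.68%, against 2.42% of genes). Continued DAPT gave the highest 3 arrays for TM7SF2 and EBP (3.44% of genes) and the lowest 3 for LBR (2.11%). Washout with IgG gave the highest 3 for INSIG1 and SCD (0.202%), Fc beads for ACSS2 (0.592%) and A13 for AACS (0.895%). As a description over these arrays, which share their treatments, SCD had the closest course to the mean of the other members (Pearson r = 0.89, n = 18), followed by LSS at 0.87, MVD at 0.85, LPIN1 at 0.84 and INSIG1 at 0.83. STARD4 at -0.68, HSD17B7 at -0.65 and ACAT2 at -0.47 ran against it. The genes outside the list nearest to the members' mean were PADI2 (0.95), GYG2 and SAMM50 (0.94 each).

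**Figure D5:**
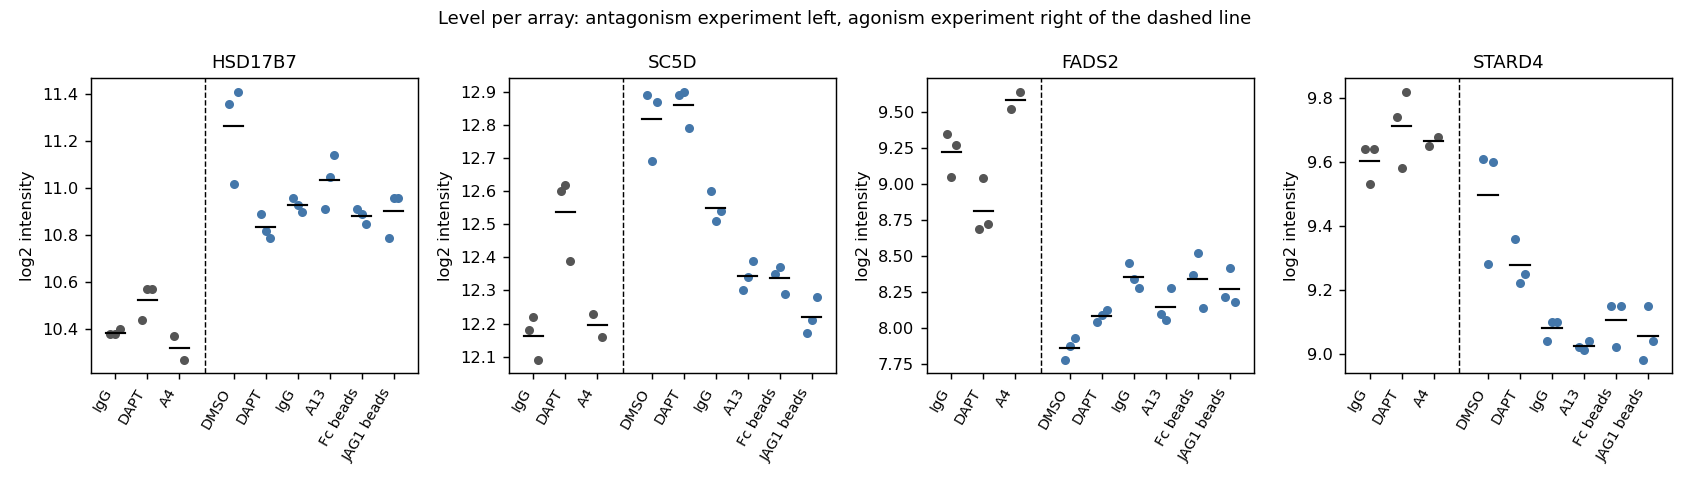
Log2 intensity (vertical) of HSD17B7, SC5D, FADS2 and STARD4 on every array by group (horizontal), antagonism experiment left and agonism experiment right of the dashed line, with points for arrays and bars for group means. In the agonism experiment HSD17B7 and STARD4 are highest in DMSO, with means of 11.26 and 9.49, and SC5D is highest with DAPT and DMSO.

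In the antagonism experiment, with 8 arrays, no member passed. For DAPT against control IgG, limma found 0 of 31 members and 0.354% of all genes at an adjusted p under 0.05. At an unadjusted p under 0.05 it found 14 of 31 members and 2572 of 19775 genes. For A4 against control IgG it found 0 members and 0.101% of all genes at the adjusted threshold, and 8 members and 1836 genes at the unadjusted one. For A4 against DAPT it found 0 members and 0% of all genes at the adjusted threshold, and 6 members and 1628 genes at the unadjusted one. The median change of the members was 0.13 with DAPT and 0.11 with A4, and 0.00 for all genes in each. The arrays did not overlap for 18 members with DAPT (15 higher and 3 lower, against 8.73% and 9.15% of all genes) and for 20 with A4 (18 higher and 2 lower, against 12.6% and 12.3%). The DAPT and A4 comparisons share the 3 control arrays. Control arrays 1 and 3 differed from each other least (SD of the log2 difference over genes 0.16), and array 2 from them by 0.25 and 0.32. Without control array 2, limma called 4 members with DAPT (TM7SF2, SC5D, ELOVL6 and FADS2) and TM7SF2 alone with A4. The shares of all genes in these fits are not given, so the counts show only that the calls depended on this array.

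TM7SF2 again had the largest value. It read 9.44, 9.21 and 9.39 with control IgG, 9.69, 9.87 and 10.06 with DAPT, and 10.01 and 10.08 with A4. The difference from control was 0.53 ± 0.10 with DAPT (adjusted p = 0.0821) and 0.70 ± 0.12 with A4 (adjusted p = 0.0892), and every treated array was above every control array. LBR had a change of -0.16 ± 0.07 with DAPT (adjusted p = 0.392) and -0.21 ± 0.08 with A4 (adjusted p = 0.469), and its arrays did not overlap the controls either. SREBF1 had a change of 0.21 with DAPT and 0.16 with A4, INSIG1 of 0.20 and 0.13, and SCD of 0.20 and 0.24, none of which passed.

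FADS2 and SC5D set DAPT and A4 apart in their values, though no gene passed between A4 and DAPT. Both were read from _s_at probe sets, which can bind several transcripts. FADS2 read 9.35, 9.05 and 9.27 with control IgG, 8.69, 9.04 and 8.72 with DAPT, and 9.52 and 9.64 with A4. Its changes were -0.41 ± 0.11 with DAPT (adjusted p = 0.178) and 0.36 ± 0.13 with A4 (adjusted p = 0.409). The A4 arrays lay above all controls. The DAPT arrays lay below all controls, but narrowly, with DAPT array 2 at 9.04 and control array 2 at 9.05. A4 stood 0.76 ± 0.13 above DAPT without passing (adjusted p = 0.6). SC5D read 12.18, 12.22 and 12.09 with control IgG, 12.60, 12.62 and 12.39 with DAPT, and 12.23 and 12.16 with A4. Its change was 0.37 ± 0.08 with DAPT (adjusted p = 0.105) and 0.03 ± 0.09 with A4. ELOVL6, again dim, had a change of -0.52 ± 0.11 with DAPT (adjusted p = 0.106).

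DAPT was given in both experiments, after different plating and against different controls. The difference of its effects, antagonism minus agonism, passed for 6 of 31 members (19.4%), against 6.12% of all genes, with 4 higher and 2 lower against 2.85% and 3.27%. The shares were 20% against 10.4% among genes above the median level. HSD17B7 had a change of 0.14 under antagonism conditions and -0.43 under agonism conditions, a difference of 0.56 ± 0.11 (adjusted p = 0.0069) that passed in each of the 12 fits that left out an array. FADS2 had changes of -0.41 and 0.22, a difference of -0.63 ± 0.14 (adjusted p = 0.0147), lost without agonism DMSO array 1 and, at -0.10, without _s_at and _x_at probe sets. The difference was 0.33 for SC5D, 0.28 for IDI1 and ACAT2, and -0.27 for SCD, and left-out arrays ended these calls in 9, 8, 4 and 7 of 12 fits. With the mean of a gene's probe sets SC5D (0.18), IDI1 (0.33) and SCD (-0.22) did not pass, and SC5D had 0.04 on its other set. The count of members called ran from 1 without DMSO array 1 of the agonism experiment to 11 without DMSO array 2. It was 2 without agonism DMSO array 3, agonism DAPT array 3 or antagonism DAPT array 2, and 3 without agonism DAPT array 2 or antagonism DAPT array 1. The shares of all genes in these fits are not given, so the counts show only how far the calls depended on single arrays. For TM7SF2 the difference was -0.16 ± 0.10 (95% interval -0.38 to 0.05), and for FASN -0.55 ± 0.21 (adjusted p = 0.112). The experiment, the control and the length of DAPT treatment cannot be told apart here.

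Neighbouring lipid pathways were read from 4 further lists, whose counts stand against all-gene shares of 12.4% higher and 8.31% lower for continued DAPT over DMSO, 17.9% and 12.6% for washout IgG over DMSO, 5.68% and 9.02% for A13 and 2.97% and 5.14% for JAG1 beads. Among genes above the median level 35.7%, 50.8%, 25.2% and 13.6% passed in either direction, in the same order. Of 16 genes of sterol sensing and transport, 4 rose with continued DAPT over DMSO and 0 fell (25%), among them MBTPS1, the protease that makes the first cut in SREBP, at 0.33, OSBP, an oxysterol-binding carrier, at 0.28 and NPC1, the lysosomal cholesterol exporter, at 0.21. After washout with IgG 6 rose and 3 fell against DMSO (56.2%). With A13 5 of the 16 fell against IgG and 0 rose (31.2%), including CYP27A1, the sterol 27-hydroxylase, at -0.54. With JAG1 beads 3 fell (18.8%). Of 8 genes of the liver X receptor and efflux list, 4 rose with continued DAPT (50%), and ABCG1, a sterol exporter, rose by 0.49 there and fell by 0.57 with A13. LPCAT3, which places polyunsaturated chains in phospholipids, rose by 0.46 with DAPT and fell by 0.40 with A13 and by 0.26 with JAG1 beads. Of 22 genes of fatty acid handling and lipid assembly, 7 rose and 1 fell with continued DAPT (36.4%), 9 rose and 3 fell after washout with IgG against DMSO (54.5%), and 2 rose and 6 fell with A13 (36.4%). SCD5, a second stearoyl-CoA desaturase, rose by 0.51 with A13 and by 0.44 with JAG1 beads, where SCD had changes of -0.29 and -0.16. LPIN2, a phosphatase related to LPIN1, fell by 0.61 with A13. Of 13 genes of fatty acid oxidation and its PPAR regulators, 5 rose with continued DAPT (38.5%) and 4 fell with A13 (30.8%), PPARG by 0.38. Several of these shares lie near those of genes above the median level. In the antagonism experiment 0 genes of the 4 lists passed in limma, where 0.354% of all genes passed with DAPT and 0.101% with A4. With DAPT 3 of 16, 2 of 8, 4 of 22 and 1 of 13 had an unadjusted limma p under 0.05, against 2572 of all 19775 genes.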

How the data were processed

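The authors deposited 1 linear intensity per probe set and array, ranging from 7.12 to 32597. The submitters' processing notes name RMA and R 2.10 without giving roles, and the sources used here do not give whether the experiments were normalized apart. RMA equalizes arrays, so a shift of most transcripts would be reduced. Intensities were converted to log2, where the plan had taken the values to be log2 already. Of 54675 probe sets, 41097 had 1 gene symbol, 1801 several and 11777 none in the platform annotation. Each gene was read from its brightest single-gene probe set by mean log2 over 26 arrays.

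A limma model (version 3.58.1, R 4.3.3, moderated by eBayes) was fitted to all groups of an experiment, with 5 residual degrees of freedom in the antagonism and 12 in the agonism experiment, and to all arrays with 17 for the difference of DAPT effects. P-values were adjusted over 19775 genes in each of 12 comparisons. The scripts were tested on simulated data. Figures used Python 3.11.15 with matplotlib 3.10.9. All listed members measured were named. Arrays of a group are numbered in listed order. Precision is limited by the few arrays. The members and lists were chosen with earlier results of these data known. Alternatives were probe set choice, scaling, an offset, filters, fit settings and leaving out each array.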

Additional observations from a re-analysis of the deposited data

Results flagged for a closer look

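The effect of DAPT on 6 members differed between the experiments by the test of the difference itself (antagonism minus agonism, log2, limma over all 26 arrays). It was 0.56 for HSD17B7, 0.33 for SC5D, 0.28 for ACAT2, 0.28 for IDI1, -0.27 for SCD and -0.63 for FADS2. HSD17B7 and IDI1 were read from probe sets whose names end in _x_at, which can also bind related transcripts. SC5D, ACAT2, SCD and FADS2 were read from _s_at sets. With the mean of a gene's probe sets, the limma adjusted p was 0.421 for SC5D, 0.0558 for IDI1 and 0.521 for SCD. Without _x_at and _s_at sets the difference was 0.04 for SC5D, 0.60 for IDI1 and -0.10 for FADS2, and none passed. With only the compared groups in the fit, none of the 6 members passed. The cause of these differences was not tested. Groups of 4 or more arrays, in which an outlying array could be tested, did not occur.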

How the results depend on the processing

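No paired analysis was possible because the labels give the arrays no replicate numbers. No member's change that passed had the opposite sign under the settings here, which vary the scaling, offset, filter, variance model, averaging or kind of probe set, and arrays left out. Single probe sets of ACACA, SQLE and SREBF2, each read alone, had changes of the opposite sign for washout IgG against DMSO. Values are counts of members called, with the main count in brackets. The shares of all genes under these settings are not given, so the counts show only how the calls depended on the setting. For DAPT against control IgG (0), centring on the median of the genes tested, which was chosen after seeing the data, gave 1, repeated quantile normalization 1, genes above the median level 3, and eBayes with trend and robust 5, with 0 to 4 over the fits that left out an array. For A4 against control IgG (0) the last 3 of these settings gave 1 each, and left-out arrays 0 to 1. With _x_at and _s_at probe sets left out, which kept 20 members, the counts were 6 for continued DAPT against DMSO (14), 2 for washout IgG against DAPT (10), 13 for washout IgG against DMSO (27), 6 for A13 (10), 2 for JAG1 beads (4), 1 for JAG1 beads against A13 (3) and 0 for the difference of DAPT effects (6). Left-out arrays gave 10 to 18, 4 to 10, 22 to 26, 7 to 9, 2 to 4, 0 to 2 and 1 to 11 in the same order. Washout IgG against DAPT had 6 with median centring, 16 with trend and robust, and 4 with only the compared groups in the fit. The last setting gave 2 for JAG1 beads, 0 for JAG1 beads against A13 and 0 for the difference of DAPT effects. JAG1 beads against A13 had 1 with median centring and 6 among genes above the median level. Fc beads against IgG (0) had 1 with the mean of all probe sets, 1 with quantile normalization, 2 with an offset of 32, 2 among genes above the median level and 4 with trend and robust, with 0 to 1 over left-out arrays. The difference of DAPT effects had 3 with the mean of probe sets and 3 with control array 1 as the sole antagonism control, also chosen after seeing the data. The cause of these shifts was not tested, beyond the fewer genes or arrays that some settings use.

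Centring on the median of the genes tested moved the split of all genes from 2446 higher and 1643 lower to 1867 and 2209 for continued DAPT against DMSO, from 3548 and 2501 to 2602 and 2996 for washout IgG against DMSO, from 1124 and 1784 to 1483 and 1386 for A13, from 934 and 325 to 656 and 459 for JAG1 beads against A13, and from 564 and 647 to 908 and 389 for the difference of DAPT effects. For the members it gave 19 higher and 7 lower for washout IgG against DMSO. Arrays give no read depth, and ELOVL6, at the 16.3th percentile in the antagonism experiment, was the member nearest to background.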

Other observations

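Different probe sets of a member did not always give like values. For washout IgG against DMSO, a dim IDI1 probe set (mean log2 6.30) changed by -0.72 where the brightest gave -0.11, an ACACA set by -0.24, SQLE sets by -0.16 and 0.14, a FADS2 set by 0.12, an SC5D set by -0.04 and an EBP set by -0.23. For A13 against IgG, a second SREBF1 set changed by -0.21 and a second EBP set by 0.02. These values stand beside 0.27 for ACACA, 0.42 for SQLE, 0.49 for FADS2, -0.27 for SC5D, -0.01 for EBP with washout, and -0.43 for SREBF1 and -0.23 for EBP with A13, from the brightest sets.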
